A study of Mus musculus with 62 samples.

Results

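The aryl hydrocarbon receptor and its targets comprised 8 genes, taken by mouse Entrez identifier from count tables that together listed 18821 genes. They were Ahr (Entrez 11622), the receptor; Arnt (11863), its dimer partner; the feedback repressors Ahrr (11624) and Tiparp (99929); the cytochromes P450 Cyp1a1 (13076), Cyp1a2 (13077) and Cyp1b1 (13078); and Nqo1 (18104), a quinone reductase. The RNA came from the liver, prefrontal cortex and striatum of female C57BL/6 mice, an inbred strain, that were dosed orally with the MARBLES mixture of polychlorinated biphenyls (PCBs) or with vehicle. Vehicle mice gave 4 libraries per tissue, the 0.1 mg/kg dose 4 in the liver and 5 in each brain region, and the 1 mg/kg and 6 mg/kg doses 6 per tissue. No group carried an engineered allele or a further agent according to the labels, and the age of the mice and the length of exposure are not given in the sources used here. All 8 genes were listed in the liver table, 7 in the prefrontal cortex table and 6 in the striatum table. Cyp1a2 in both brain regions and Cyp1a1 in the striatum were not analysed here.

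The receptor is a ligand-activated transcription factor of the bHLH-PAS family. It waits in the cytosol bound to the chaperones HSP90 and p23, and after it binds a planar aromatic ligand, such as a dioxin or a PCB without ortho chlorines, it enters the nucleus and pairs with ARNT on short dioxin response elements. Its best known targets in the liver are the CYP1 enzymes, which oxidise aromatic compounds; AHRR competes for ARNT, and TIPARP ADP-ribosylates the receptor and shuts off its signal. PCBs with ortho chlorines act mainly through another pair of receptors, CAR and PXR, whose classic liver target in mice is Cyp2b10.

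The promoters of 4 members are shown because these genes differ most in level or in their response below. Each is the 250 bases before the transcript start used by the RefSeq promoter table (GRCm38.p6, the build mm10), which for Cyp1a1 is base 57697613, inside the annotated gene span, read 5′ to 3′ on the strand of the gene, and capitals mark the response element core GCGTG, which appears as CACGC where it lies on the other strand. Ahrr (chr13:74292332-74292581, minus strand) held 3 cores and Cyp1a1 (chr9:57697363-57697612, plus strand) held 1, 54 bases before the start. Tiparp (chr3:65528197-65528446, plus strand) held 1, at 170 bases, and Cyp1a2 (chr9:57683656-57683905, minus strand) held none.
Ahrr: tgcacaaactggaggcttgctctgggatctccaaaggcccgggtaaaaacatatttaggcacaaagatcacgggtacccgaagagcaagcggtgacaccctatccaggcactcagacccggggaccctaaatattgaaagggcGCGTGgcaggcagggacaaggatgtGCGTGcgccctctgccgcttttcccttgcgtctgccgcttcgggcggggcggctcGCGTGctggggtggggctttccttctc
Cyp1a1: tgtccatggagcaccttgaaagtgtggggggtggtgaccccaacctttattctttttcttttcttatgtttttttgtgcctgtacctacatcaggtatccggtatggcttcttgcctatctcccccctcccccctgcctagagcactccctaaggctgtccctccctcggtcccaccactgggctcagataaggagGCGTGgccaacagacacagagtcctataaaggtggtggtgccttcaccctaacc
Tiparp: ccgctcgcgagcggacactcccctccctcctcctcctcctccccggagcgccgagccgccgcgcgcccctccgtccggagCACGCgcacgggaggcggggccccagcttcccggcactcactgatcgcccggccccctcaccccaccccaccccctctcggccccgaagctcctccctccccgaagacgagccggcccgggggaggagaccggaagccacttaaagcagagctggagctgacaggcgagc
Cyp1a2: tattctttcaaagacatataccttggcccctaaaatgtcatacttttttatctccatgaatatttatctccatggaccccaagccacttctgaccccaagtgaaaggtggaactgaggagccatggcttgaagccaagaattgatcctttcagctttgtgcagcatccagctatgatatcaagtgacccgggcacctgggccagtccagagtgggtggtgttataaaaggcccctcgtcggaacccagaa
Arnt and Cyp1b1 held 1 core each and Nqo1 none, and Ahr was not matched. At least 1 core was present in 28.2% of 32851 mouse promoters of this length, and 3 or more in 2.77%, so a single core is common. Sequence outside these 250 bases was not searched, so a gene without a core here may hold cores elsewhere.

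On GRCm38.p6, Ahr lies at chr12:35497979-35534989, Arnt at chr3:95434367-95497240, Ahrr at chr13:74211118-74292331 and Tiparp at chr3:65528447-65555518. Cyp1b1 lies at chr17:79706940-79715061 and Nqo1 at chr8:107388225-107403205. Cyp1a1 (chr9:57687928-57703824) and Cyp1a2 (chr9:57676937-57683655) are head-to-head neighbours. The Cyp1a2 start (57683655) and the Cyp1a1 transcript start of the promoter table (57697613) are 14.0 kb apart, and the annotated span of Cyp1a1 begins between them. They are related in sequence, and how reads that match both were counted is not given in the sources used here. Of all 50-base windows of the longest Cyp1a1 transcript, 3.55% also occur in Cyp1a2.

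Depth was 7381179 to 10203247 counts per library for liver (20 libraries), 8722232 to 12135200 for prefrontal cortex (21) and 8283032 to 12019651 for striatum (21). Markers separated liver from brain. In vehicle liver 8 hepatocyte genes summed to 102000 to 113000 CPM (read counts rescaled to a common library total). The 4 of them listed in brain reached at most 1.73 CPM there. The brain regions separated less cleanly. In vehicle libraries, 8 striatal projection neuron markers summed to 1140 to 3040 CPM in cortex and 3070 to 6530 CPM in striatum. The 6 cortical projection neuron markers summed to 1850 to 2290 CPM in cortex and 126 to 1190 CPM in striatum. The part of dissection in differences between the brain regions was not tested. Levels are CPM with TMM scaling (a trimmed mean of the log ratios between libraries) done separately in each tissue, so a level is not strictly comparable across tissues. The figure after ± is the SD over the libraries of a group, and a gene was said to pass when its Benjamini-Hochberg adjusted p over all genes tested was under 0.05 in edgeR's quasi-likelihood test. The number in a library title recurs across tissues and is called the animal number here, but no label says that libraries of a group came from separate animals, so p-values measure the spread between these libraries. In these bulk samples, fewer cells of a type and less RNA per cell cannot be told apart.

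In vehicle mice the liver carried the most Ahr mRNA and the brain the most Tiparp and Cyp1b1 mRNA. Liver Ahr averaged 40.81 ± 4.969 CPM, against 13.38 ± 1.441 CPM in cortex and 8.49 ± 2.046 CPM in striatum (n = 4 each), and the 3 sets of libraries overlapped only where the striatal maximum of 11.37 CPM met the cortical minimum of 11.3 CPM. Nqo1 followed, at 11.73 ± 2.466 CPM (liver), 2.876 ± 1.114 CPM (cortex) and 4.446 ± 1.531 CPM (striatum). Tiparp ran the other way, from 5.711 ± 0.9142 CPM in liver through 16.16 ± 0.4284 CPM in cortex to 23.36 ± 2.777 CPM in striatum, and no library of one tissue overlapped another tissue. Cyp1b1 stood at 0.3972 ± 0.2606 CPM in liver and at 3.835 ± 0.7986 CPM (cortex) and 3.606 ± 1.852 CPM (striatum) in brain.

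The tissue differences were tested in fits over the vehicle libraries of a pair of tissues, scaled together. Between liver and prefrontal cortex 84.9% of all genes passed, and so did Ahr, Arnt, Nqo1 and Tiparp. Ahr was higher in the liver by 2.54 (log2, SE 0.137, edgeR adjusted p 4.35e-10) and Nqo1 by 2.96 (SE 0.258, edgeR adjusted p 7.99e-08). Tiparp differed by -0.56 (SE 0.164, edgeR adjusted p 0.0058). Cyp1b1, with 1 to 6 counts per vehicle liver library, entered these fits only through the brain libraries, where it is high, so its liver differences of -2.34 from prefrontal cortex and -2.18 from striatum are descriptions and not tests. Against the striatum, where 83.7% of all genes passed, those 4 members passed as well, with Ahr at 3.26 and Nqo1 at 2.40 higher in the liver, and Tiparp at -1.02. For Arnt the direction depends on scaling: its liver difference was 0.48 from prefrontal cortex and 0.52 from striatum with TMM, but -0.23 (edgeR adjusted p 0.117) and -0.16 (edgeR adjusted p 0.300) with library totals. That change of scaling moved the median of all genes from -0.19 to -0.89 and from -0.20 to -0.87, and the other members kept their direction. Over all alternatives the liver difference from prefrontal cortex went as low as 1.84 (Ahr), 2.27 (Nqo1) and -1.26 (Tiparp). That from striatum went as low as 2.60 (Ahr), 1.73 (Nqo1) and -1.69 (Tiparp). Between the brain regions 22.2% of all genes passed; Ahr was lower in the striatum (-0.74, SE 0.176, edgeR adjusted p 0.0083) and Tiparp higher (0.45, SE 0.120, edgeR adjusted p 0.0144). With 1 animal left out these differences were -0.99 to -0.62 for Ahr and 0.37 to 0.53 for Tiparp, but 0 members passed without animal 3 or without animal 7, and without animal 4 Ahr alone passed.

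**Figure D1:**
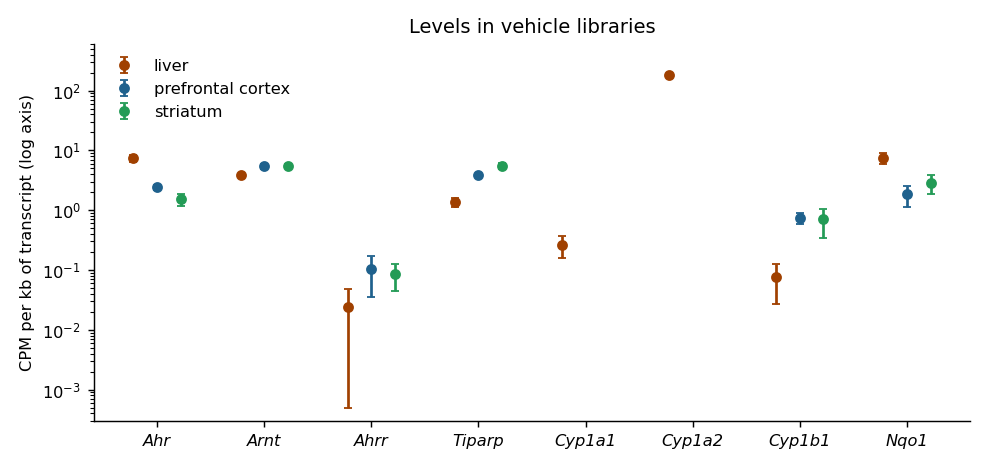
Mean levels of the 8 genes in vehicle libraries, in CPM per kb of the longest transcript on a log axis, by tissue; bars are SD over 4 libraries. Cyp1a2 stands at 179 in the liver, against at most 7.55 for any other point, while Cyp1a1 in prefrontal cortex, at 0 counts, has no place on the axis and genes without a point were not analysed.

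Divided by transcript length, the level of Cyp1a2 in vehicle liver was 179 ± 13.6 CPM per kb (SD, n = 4), ranking 414 of 15307 genes with a length. Nqo1 (7.55 ± 1.59) and Ahr (7.36 ± 0.896) came next on this scale and did not differ beyond their spread, followed by Arnt at 3.92 ± 0.0865 and Tiparp at 1.36 ± 0.218. Cyp1a1 stood at 0.262 ± 0.106 CPM per kb, rank 12068, in the gene next to Cyp1a2, and Cyp1b1 at 0.0775 ± 0.0508 overlapped Ahrr at 0.024 ± 0.0235. In the striatum Tiparp (5.57 ± 0.663 CPM per kb) and Arnt (5.49 ± 0.312) overlapped each other and led the members. In the prefrontal cortex Arnt led at 5.39 ± 0.493 CPM per kb, followed by Tiparp at 3.86 ± 0.102. The receptor itself, at 2.41 ± 0.26 CPM per kb in cortex and 1.53 ± 0.369 in striatum, overlapped Nqo1 in both (1.85 ± 0.717 and 2.86 ± 0.986), as the plot of vehicle levels shows.

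In the liver, Cyp1a2 rose with the PCB mixture and was the 1 member of 6 tested that passed at 6 mg/kg, where 2.80% of 12968 genes did (1.80% higher, 0.995% lower). CYP1A2 is a constitutive enzyme of pericentral hepatocytes that oxidises caffeine and aromatic amines. The vehicle libraries held 364.7, 329.4, 320.3 and 374.2 CPM. At 0.1 mg/kg they held 534.3, 567.7, 466.7 and 480.4 CPM. The lowest dose already lay wholly above vehicle. The 1 mg/kg group ran from 477.3 to 964.6 CPM (median 597 CPM) and the 6 mg/kg group from 563.4 to 1192 CPM (median 1034 CPM). At every dose each library exceeded each vehicle library, which held for 16 of the 12968 genes (0.123%), though the doses overlapped one another. For a single dose the share of genes with such a separation was 2.14%, 0.848% and 3.26% at 0.1, 1 and 6 mg/kg. These levels rest on 3034 to 12287 counts per library, so counting error is small beside the spread.

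Mean Cyp1a2 went from 347.2 ± 26.33 CPM (SD, n = 4) under vehicle through 512.3 ± 47.1 (n = 4) and 654.4 ± 186.3 (n = 6) to 941.5 ± 268.2 CPM (n = 6) under 6 mg/kg, 2.71 times vehicle. Its log2 difference at 6 mg/kg was 1.44 (SE 0.231, 95% interval 0.96 to 1.92, edgeR adjusted p 0.00592), rank 6 of all genes by p and 217 by size. The slope over dose rank was 0.47 per step (SE 0.0687, edgeR adjusted p 0.0014), rank 4, and 4.81% of genes had a slope that passed (2.85% upward, 1.96% downward). For 1 mg/kg the log2 difference was 0.91 (SE 0.226, edgeR adjusted p 0.306); 0% of genes passed there, 1095 (8.44%) had a raw p under 0.05 and DESeq2 called 24. For 0.1 mg/kg it was 0.56 (SE 0.242, edgeR adjusted p 0.994), where 0.0154% passed. From 0.1 to 6 mg/kg it was 0.88 (SE 0.226, edgeR adjusted p 0.143, 0.0386% of genes passing). DESeq2 also called the difference at 1 mg/kg (0.92, adjusted p 0.0174; 0.185% of genes called) and that from 0.1 to 6 mg/kg (0.89, adjusted p 0.0126; 1.10% called). These comparisons share libraries, so their values are not independent.

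**Figure D2:**
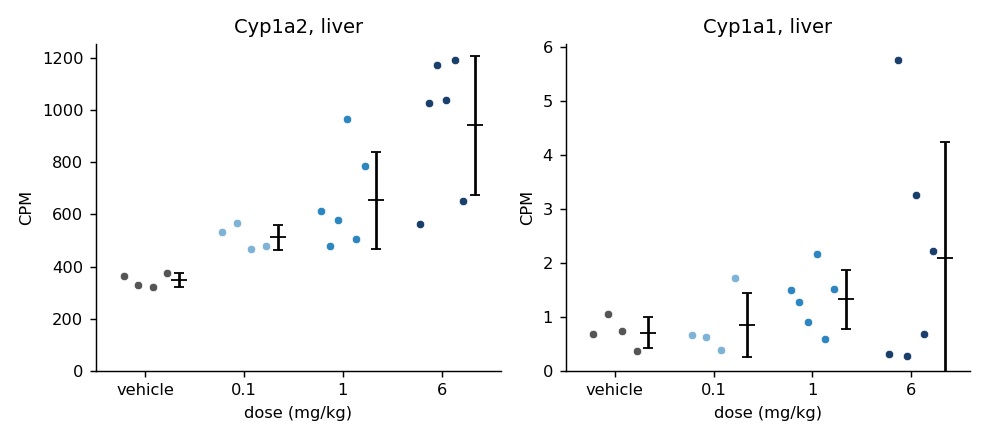
Liver CPM of Cyp1a2 and Cyp1a1 by dose, 1 point per library, with the mean and SD of each group (a bar that would pass below 0 is cut at the axis). All 16 dosed libraries lie above the 4 vehicle libraries for Cyp1a2, and for Cyp1a1 the 6 mg/kg libraries run from 0.2713 to 5.761 CPM across the vehicle range.

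Clock genes moved with the same groups. The clock index, the log2 CPM of Dbp, a clock output gene that peaks late in the day, minus that of Arntl, which encodes BMAL1, was 2.045, 2.491, 5.185 and 5.446 in vehicle animals 3, 4, 7 and 8, and 5.76 to 8.60 in all dosed libraries. No dosed library overlapped a vehicle library in this index, so dosing and clock phase cannot be fully told apart. At 6 mg/kg 5 of 13 clock genes rose and 1, Arntl, fell, where 1.80% of all genes rose and 0.995% fell. None of the 13 passed without vehicle animal 3, without vehicle animal 4, with the clock index or the GC slope (how far levels in a library follow GC content) as a covariate, or against vehicle animals 7 and 8 only, and 1 rose with only the 2 groups in the fit. With the index as a covariate the Cyp1a2 difference at 6 mg/kg was 1.48 but no longer passed (edgeR adjusted p 0.9995). Of all 12968 genes 0 passed in that fit, and 471 had a raw p under 0.05. The Cyp1a2 slope over dose rank, 0.47 with the index as a covariate, did not pass either (edgeR adjusted p 0.159). Among the vehicle mice, animals 3 and 4, with the lowest index, had 364.7 and 329.4 CPM of Cyp1a2, and animals 7 and 8, with the highest, 320.3 and 374.2 CPM. Against animals 7 and 8 alone the difference was 1.44 (edgeR adjusted p 0.302), and the slope passed at 0.46 (edgeR adjusted p 0.0299), where 8 of all genes (0.0592%) did.

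**Figure D3:**
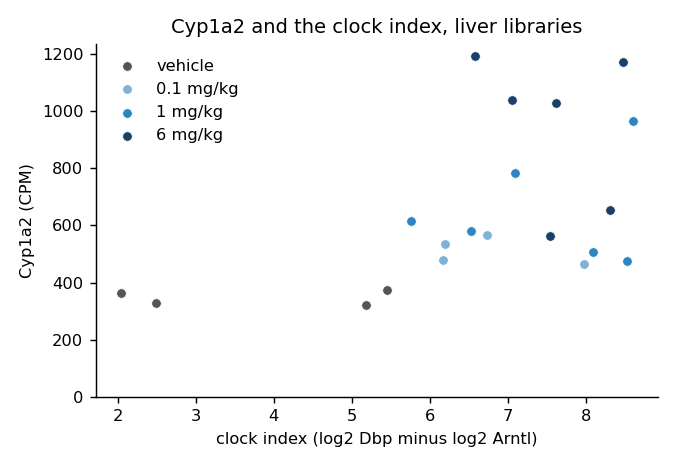
Liver Cyp1a2 CPM against the clock index of the same library, 1 point per library, coloured by dose. The 4 vehicle libraries span an index of 2.045 to 5.446 at 320.3 to 374.2 CPM, and the dosed libraries lie to the right of and above them.

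Library composition also differed between these groups. A GC slope was computed per library: how far each gene lay above or below its average over libraries was correlated (Spearman) with the GC content of that gene. It was -0.28 to -0.16 in vehicle liver and -0.02 to 0.24 under 6 mg/kg. With it as a covariate the Cyp1a2 difference was 1.60 (edgeR adjusted p 0.0641) and the slope over dose rank 0.53 (edgeR adjusted p 0.0501), and without vehicle animal 4 it was 1.41 (edgeR adjusted p 0.0514). Summed pericentral markers, 8560 to 11400 CPM for vehicle against 5540 to 11800 CPM for 6 mg/kg, overlapped between the groups, with 0 of 8 passing, and so did periportal and hepatocyte markers, with 0 of 8 each. Of 6 Kupffer cell markers 1 rose, Clec4f (0.93, edgeR adjusted p 0.0333; passing under 12 of 20 alternatives, and not without vehicle animal 3, 4 or 8 or 6 mg/kg animal 58), and the summed list ran from 122 to 201 CPM for vehicle against 168 to 351 CPM for 6 mg/kg. Red blood cell genes, 3 of them listed, summed to 47.8 to 3070 CPM under vehicle against 69.3 to 230 CPM, with 0 passing. The 6 microglia markers, which include general macrophage genes such as Csf1r, C1qa and Aif1, summed to 69.8 to 87.8 CPM in vehicle liver, 107 to 126 CPM under 0.1 mg/kg, 72.5 to 170 CPM under 1 mg/kg and 100 to 179 CPM under 6 mg/kg, with 0 of 6 passing at 6 mg/kg. The vehicle and 6 mg/kg sums did not overlap. The part of macrophage and blood RNA in the Cyp1a2 result was not tested.

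Cyp1a1, the enzyme most often read as a sign of receptor activation, had few counts in the liver, from 2 to 48 per library. Its vehicle libraries had 0.6779, 1.052, 0.739 and 0.3573 CPM, from 3 to 11 counts each. Those at 6 mg/kg had 0.3132, 5.761, 0.2713, 3.254, 0.679 and 2.226 CPM. Animals 53, 55 and 58 stood above every vehicle library and animals 52 and 54 below every one. The log2 difference was 1.53 (SE 0.697, 95% interval 0.08 to 2.97, edgeR adjusted p 0.183) and was 0.91 without animal 53. For 1 mg/kg it was 0.88 (SE 0.700, edgeR adjusted p 0.712), with libraries from 0.5954 to 2.163 CPM. The slope over dose rank was 0.53 (SE 0.203, edgeR adjusted p 0.111). At these counts a change of the size seen in Cyp1a2 would lie within the interval.

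Cyp1a2 made up at least 99.29% of the summed CPM of the 3 Cyp1 genes in every liver library. Per kb, its level was a median of 675 times that of Cyp1a1 under vehicle (435 to 1460 in single libraries), 1180 times under 0.1 mg/kg, 668 times under 1 mg/kg and 1440 times under 6 mg/kg (248 to 6010). These ratios overlapped between groups and rest on as few as 2 Cyp1a1 counts. Animals with much Cyp1a2 were not always those with much Cyp1a1: at 6 mg/kg animal 54 had 1172 CPM of Cyp1a2 and 0.2713 CPM of Cyp1a1, and animal 58 had 652.7 and 2.226 CPM. Cyp1b1, which metabolises estrogens and polycyclic hydrocarbons outside hepatocytes, had 0 to 17 counts per liver library and was not fitted. Its mean was 0.3972 ± 0.2606 CPM under vehicle against 0.272 ± 0.2916 CPM under 6 mg/kg.

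The receptor and its partner did not pass in the liver at any dose. Ahr averaged 40.81 CPM under vehicle, 43.66 CPM under 0.1 mg/kg, 33.44 CPM under 1 mg/kg and 39.6 CPM under 6 mg/kg, and every dose overlapped vehicle. Its log2 difference for the highest dose was -0.04 (95% interval -0.44 to 0.36, edgeR adjusted p 0.911). Arnt averaged 16.97 ± 0.3741 CPM under vehicle against 16.85 ± 4.939 CPM, a difference of -0.01 (95% interval -0.47 to 0.46, edgeR adjusted p 0.987). The vehicle libraries of Arnt spanned only 16.45 to 17.27 CPM and those at 6 mg/kg 10.8 to 23.57 CPM. With the GC slope as a covariate the Arnt difference at 6 mg/kg became 0.59 (edgeR adjusted p 0.446).

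The feedback repressors and Nqo1 did not pass in the liver either. Tiparp ranged from 4.407 to 6.503 CPM under vehicle and from 3.662 to 7.954 CPM under 6 mg/kg, a log2 difference of -0.02 (95% interval -0.48 to 0.43, edgeR adjusted p 0.957). Nqo1, a joint target of the receptor and of NRF2, averaged 11.73 ± 2.466 CPM under vehicle against 9.456 ± 1.87 CPM, a difference of -0.31 (95% interval -0.79 to 0.17, edgeR adjusted p 0.419). Ahrr had 0 to 6 counts per liver library; at 6 mg/kg 5 of 6 libraries had 0 counts and the group total was 6 counts. By exact permutation tests, two-sided, neither Ahrr nor Cyp1b1 passed between any dose and vehicle in the liver (smallest p 0.257, n = 4 and 4).

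In the prefrontal cortex no member passed at any dose, and 0 of the 14838 genes tested did (0%). Raw p-values under 0.05 were held by 1376 genes (9.27%) for 6 mg/kg, 1230 (8.29%) for 1 mg/kg and 954 (6.43%) for 0.1 mg/kg, none of them a member, and DESeq2 called 25, 0 and 1 genes. Slopes over dose rank passed for 0.0202% of genes and for 0 members. Ahr averaged 13.38 ± 1.441 CPM under vehicle and 12.75 ± 2.576 CPM under 6 mg/kg (-0.07, 95% interval -0.43 to 0.28), and Arnt 23.3 ± 2.133 and 23.64 ± 3.991 CPM. The Arnt interval was -0.25 to 0.29 on the log2 scale. Nqo1 averaged 2.876 and 2.874 CPM, with an interval of -0.56 to 0.55. Ahrr had 1 to 13 counts per library and a difference of 0.41 with an interval of -0.73 to 1.55, so little can be read from it at this depth.

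Cyp1b1 in the prefrontal cortex had 4.064, 3.89, 4.645 and 2.739 CPM under vehicle against 2.247 to 6.251 CPM under 6 mg/kg, a log2 difference of -0.10 (SE 0.268, edgeR adjusted p 0.940). Its lowest mean was 2.71 ± 0.5092 CPM at 1 mg/kg (SD, n = 6), a difference of -0.50 (SE 0.272, edgeR adjusted p 0.588). Cyp1a1 had 0 counts in all 4 vehicle and all 6 libraries at 6 mg/kg. A count of 0 allows up to 3 counts per group, which is 0.076 CPM for vehicle and 0.0525 CPM for 6 mg/kg, counting error only. It had 8 counts in the 5 libraries at 0.1 mg/kg and 9 in the 6 at 1 mg/kg, at most 4 per library. The contrast of 6 with 0.1 mg/kg gave a two-sided exact permutation p of 0.0303 (n = 6 and 5), and 0.457 after Benjamini-Hochberg adjustment over 16 such tests of thinly counted members.

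Tiparp in the prefrontal cortex was tightly grouped in vehicle, at 16.34, 16.19, 15.56 and 16.55 CPM. It had 12.74, 16.58, 17.41, 8.44, 14.26 and 14.44 CPM at 6 mg/kg, on both sides of vehicle. The log2 difference was -0.21 (SE 0.180, edgeR adjusted p 0.756). Against 0.1 mg/kg, whose libraries ran from 15.19 to 19.71 CPM, it was -0.38 (SE 0.168, edgeR adjusted p 0.446), where 0.108% of genes passed.

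The striatum gave the only other shift of a member that separated its libraries from vehicle. Tiparp had 23.03, 24.28, 26.38 and 19.74 CPM in vehicle, and 16.29, 12.54, 13.35, 13.37, 15.63 and 16.77 CPM at 6 mg/kg. All 6 lay below all 4 vehicle libraries, as for 1.91% of 15118 genes, and below all 5 libraries at 0.1 mg/kg (20.57 to 27.58 CPM), as for 3.01%. The 1 mg/kg libraries spread from 10.94 to 32.72 CPM, over both groups.

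The Tiparp difference in the striatum did not pass. At 6 mg/kg it was -0.67 against vehicle (log2, SE 0.209, 95% interval -1.10 to -0.24, edgeR adjusted p 0.208), rank 265 by p; 0% of genes passed, 2377 (15.7%) had a raw p under 0.05 and DESeq2 called 31. For the lower doses 0% passed as well, with 7.36% (1 mg/kg) and 2.53% (0.1 mg/kg) at a raw p under 0.05 and 5 and 1 called by DESeq2. From 0.1 to 6 mg/kg it was -0.69 (SE 0.198, edgeR adjusted p 0.0555), where 2.91% of genes passed, 1.25% downward. That contrast passed under 3 of 20 alternatives: with 1 surrogate variable (-0.69, edgeR adjusted p 0.0401; 7.88% of all genes passed), with only the 2 groups in the fit (-0.69, edgeR adjusted p 0.0155; 4.57% of all genes) and with DESeq2 (-0.69, adjusted p 0.0173; 7.30% of all genes). Over the 20 the adjusted p ran from 0.0155 to 0.990, the highest with the clock index as a covariate. The slope over dose rank was -0.22 (SE 0.0713, edgeR adjusted p 0.272; 0% of genes passed, 13.1% at a raw p under 0.05 and 22 by DESeq2), and a slope over mg/kg passed at -0.11 per mg/kg (edgeR adjusted p 0.015), as did that of 12.3% of all genes.

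**Figure D4:**
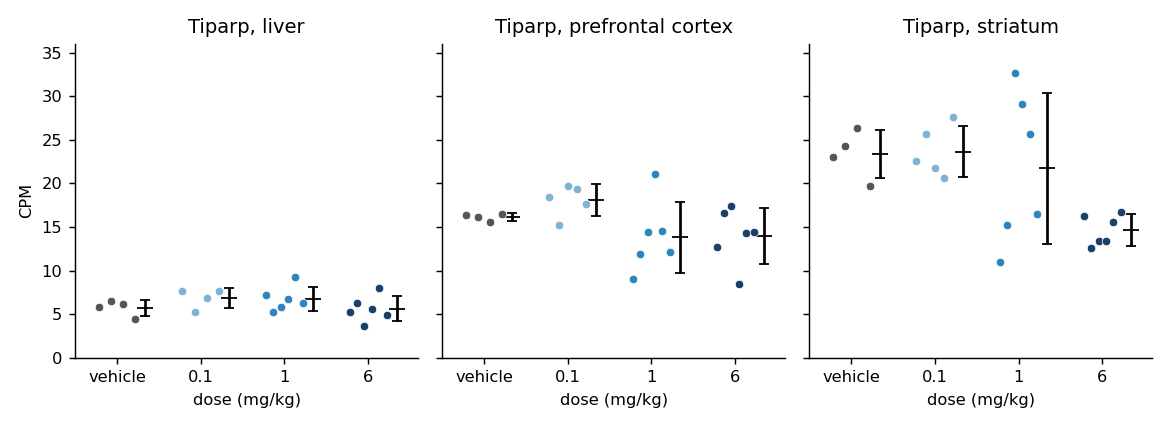
Tiparp CPM by dose in each tissue on 1 shared axis, 1 point per library, with the mean and SD of each group. In the striatum the 6 libraries at 6 mg/kg (12.54 to 16.77 CPM) lie below all vehicle libraries (19.74 to 26.38 CPM), while in liver and prefrontal cortex the groups overlap.

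Library composition moved with dose in the striatum too. The GC slope was 0.29 to 0.43 in the 6 libraries at 6 mg/kg, -0.32 to -0.03 at 0.1 mg/kg, and -0.215, -0.41, 0.392 and 0.246 in vehicle animals 3, 4, 7 and 8. Vehicle animals 7 and 8, with the higher slopes, had 26.38 and 19.74 CPM of Tiparp, the highest and the lowest of their group. At 1 mg/kg, animals 41, 42, 45, 46, 48 and 50 had slopes of -0.1783, -0.5699, -0.4737, -0.4486, -0.4132 and 0.2812, and 10.94, 15.29, 32.72, 29.16, 25.69 and 16.54 CPM of Tiparp. Animals 45, 46 and 48, with the most Tiparp, had slopes of -0.4737 to -0.4132. Slopes ran from -0.5699 to 0.2812 in animals 41, 42 and 50, with the least. With the slope as a covariate the Tiparp difference from vehicle was -0.49 (edgeR adjusted p 0.421) and that from 0.1 mg/kg -0.42 (edgeR adjusted p 0.617). Oligodendrocyte markers, 6 of 6 listed, summed to 4380 to 6620 CPM under vehicle against 6600 to 9240 CPM under 6 mg/kg. Neuron markers summed to 4760 to 6380 against 4850 to 5810 CPM. Cortical projection neuron markers summed to 126 to 1190 against 111 to 489 CPM. Choroid plexus markers summed to 36.1 to 696 against 28.6 to 2620 CPM. Red blood cell genes summed to 68.2 to 545 against 43.8 to 139 CPM. Against vehicle 0 passed in any of these lists. Pericyte and vascular smooth muscle markers summed to 179 to 216 CPM at 0.1 mg/kg and 211 to 259 CPM at 6 mg/kg. In vehicle they summed to 203 to 264 CPM. The clock index was 1.89 to 2.83 in vehicle, 1.64 to 2.43 at 0.1 mg/kg and 2.27 to 3.62 at 6 mg/kg. The parts of the GC slope, the clock index and cell composition in the Tiparp result were not tested.

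The other striatal members overlapped vehicle at every dose. Ahr averaged 8.49 ± 2.046 CPM under vehicle against 7.041 ± 1.294 CPM under 6 mg/kg, a log2 difference of -0.27 (95% interval -0.70 to 0.16, edgeR adjusted p 0.530). Arnt averaged 23.73 and 22.48 CPM, a difference of -0.08 (95% interval -0.33 to 0.17). Nqo1 averaged 4.446 and 4.278 CPM, a difference of -0.06 (95% interval -0.67 to 0.55). Cyp1b1 had 2.58, 2.794, 2.667 and 6.381 CPM under vehicle against 1.266 to 3.544 CPM. Its difference of -0.39 (SE 0.272, edgeR adjusted p 0.484) rested on vehicle animal 8 and was 0.04 without it. Ahrr had 1 to 10 counts per library, and its smallest two-sided exact permutation p against vehicle was 0.362 (n = 6 and 4).

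**Figure D5:**
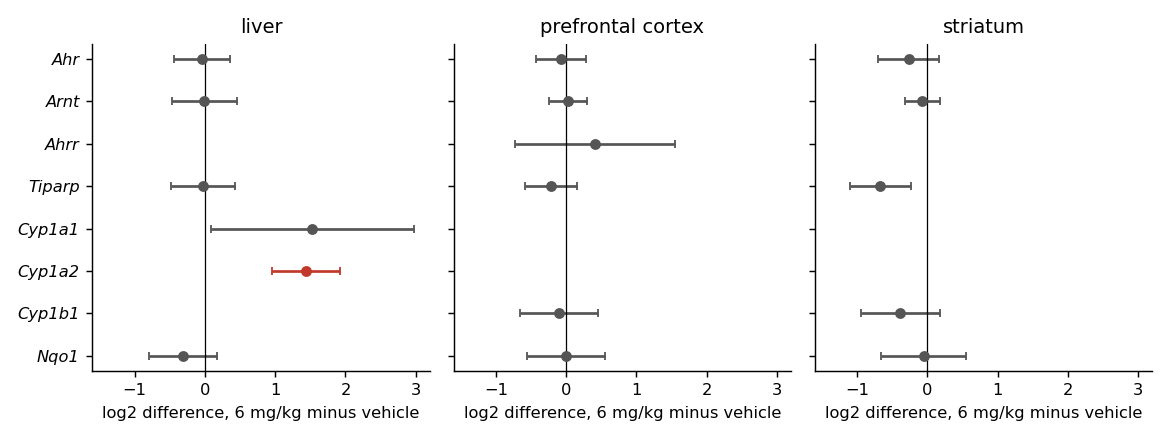
Log2 difference of each fitted member between 6 mg/kg and vehicle in each tissue, with its 95% interval; red marks an adjusted p under 0.05. Cyp1a2 in the liver (0.96 to 1.92) is the only red point, and the intervals of Cyp1a1 in the liver (0.08 to 2.97) and Tiparp in the striatum (-1.10 to -0.24) also leave out 0.

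Whether 6 mg/kg acted differently on a member in different tissues was tested as an interaction, and no member passed. Cyp1b1 entered the fits with the liver only through the brain libraries, where it is high. Its interactions there, -0.39 with prefrontal cortex and -0.10 with striatum, are descriptions and not tests. Tiparp came nearest: its difference in the liver exceeded that in the striatum by 0.64 (log2, SE 0.263, edgeR adjusted p 0.294), where 0.0277% of genes passed, and that in the striatum lay below that in the prefrontal cortex by -0.47 (SE 0.210, edgeR adjusted p 0.746), where 0% passed and 967 genes (6.43%) had a raw p under 0.05, with 0 called by DESeq2. Between liver and prefrontal cortex, where 0.899% of genes passed, the Tiparp interaction was 0.17 (SE 0.291) and that of Ahr 0.01 (SE 0.252). Cyp1a2 could not be compared between tissues. The liver rise of Cyp1a2 was therefore not shown to be particular to the liver.

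Around the members, 10 genes form or modify the receptor complex. In the liver at 6 mg/kg 0 of the 10 passed, with a median log2 difference of 0.08 against 0.02 over all genes; the smallest p belonged to Ptges3, which encodes the co-chaperone p23 (-0.42, SE 0.143, edgeR adjusted p 0.0925). Its slope over dose rank passed at -0.17 (SE 0.0506, edgeR adjusted p 0.0495), where 4.81% of all genes passed and 1.96% were downward; it passed under 6 of 30 alternatives, with adjusted p up to 0.511. Its means were 107 ± 11.34 CPM under vehicle (SD, n = 4), 122.1 ± 16.11 CPM under 0.1 mg/kg (n = 4), 96.54 ± 15.25 CPM under 1 mg/kg (n = 6) and 79.99 ± 8.665 CPM under 6 mg/kg (n = 6), so the lowest dose lay above vehicle. Another 20 genes belong to the wider receptor battery or respond to dioxin. Of the 18 tested in the liver 0 passed at 6 mg/kg, with a median of -0.32, and the smallest p belonged to Scd1, the stearoyl-CoA desaturase (-1.44, SE 0.613, edgeR adjusted p 0.160). Scd1 averaged 16100 ± 3229 CPM under vehicle against 5922 ± 4536 CPM.

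Of 14 CAR and PXR targets in the same livers 6 rose at 6 mg/kg and 0 fell, where 1.80% of all genes rose and 0.995% fell. Like the other lists, this one was chosen with earlier results of these data known, so its count is a description. The median log2 difference of the list was 1.02, against 0.02 over all genes. Cyp2b10 averaged 1.529 ± 0.6215 CPM under vehicle against 100.3 ± 103.1 CPM, from 11.38 to 247.1 CPM in single libraries, a difference of 6.01 (SE 0.912, edgeR adjusted p 0.00592). Ces2a, a carboxylesterase, averaged 192 and 386.1 CPM (1.01, SE 0.173, edgeR adjusted p 0.00932), Cyp2c50 275.1 and 614.6 CPM (1.16, SE 0.245, edgeR adjusted p 0.0199) and Cyp2c54 21.37 and 212 CPM (3.31, SE 0.683, edgeR adjusted p 0.0204). Of 8 NRF2 targets 0 passed, with a median of 0.06; Abcc4, an efflux transporter, had the smallest p (0.93, SE 0.360, edgeR adjusted p 0.127). All 6 calls were lost with the clock index as a covariate, against vehicle animals 7 and 8 only and without vehicle animal 4. Of the 6, 1 (Cyp2b10) passed with the GC slope as a covariate or without vehicle animal 3, 2 (Cyp2b10 and Cyp2c54) with only the 2 groups in the fit, and 3 without vehicle animal 7. Cyp2b and Cyp2c genes are close paralogs, so their separate counts are uncertain.

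In both brain regions 0% of all genes passed against vehicle at any dose, so these 4 lists had none either. The next genes were chosen after their values were seen. From 0.1 to 6 mg/kg, Cdkn1a, the cell cycle inhibitor p21, fell in the prefrontal cortex from 35.26 ± 5.505 CPM (SD, n = 5) to a mean of 18.87 ± 4.446 CPM, a log2 difference of -0.91 (SE 0.140, edgeR adjusted p 0.00649). It was 1 of 14 battery genes tested there, where 0.108% of all genes passed, all of them lower. In the striatum Hsp90aa1, the receptor's chaperone, fell from 1072 ± 86.9 to 857.1 ± 50.9 CPM (-0.32, SE 0.0889, edgeR adjusted p 0.0487), 1 of 10 complex genes, where 2.91% of all genes passed and 1.25% were lower. The Hsp90aa1 call held under 6 of 20 alternatives (adjusted p 0.00629 to 0.990) and that of Cdkn1a under 19 of 20, the exception being the fit with only the 2 groups (edgeR adjusted p 0.0728).

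The following Pearson correlations carry no test, and the points share dose groups, depth and composition. The genes most like Cyp1a2 over the 20 liver libraries were Cyp2c50 (Pearson r 0.851), 4931406C07Rik (0.813) and Ces2a (0.804) by log2 level. For comparison, chosen after values were seen, Cyp2b10 stood at 0.792, Dbp at 0.591 and Cyp1a1 at 0.373. Once each library was expressed as its deviation from the mean of its dose group, the closest were Car3 (0.841), Vangl1 (0.833) and Rab2a (0.825). Cyp2b10 then stood at 0.318, Cyp1a1 at 0.198 and Dbp at -0.076.

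Tiparp had different nearest genes in each tissue. By level they were Mettl7a1 (0.682), Ccdc166 (0.676) and Setd7 (0.673) in the liver, where Nqo1 stood at 0.670. They were Sik1 (0.840), Sox8 (0.822) and Map3k14 (0.792) over the 21 prefrontal cortex libraries, and Rbm26 (0.869), Ppp4r2 (0.822) and Cxadr (0.820) over the 21 striatum libraries. By deviation from the dose group mean they were Msl3 (0.755), Slc25a17 (0.751) and Aplf (0.722) in the liver, Sik1 (0.844), Sox8 (0.837) and Bcorl1 (0.771) in the prefrontal cortex, and Zbtb21 (0.833), Ints6 (0.819) and Cxadr (0.818) in the striatum. Sik1 encodes a salt-inducible kinase, an immediate early gene in neurons.

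For Cyp1b1 in the prefrontal cortex the nearest by level were Bgn (0.824), which encodes the matrix proteoglycan biglycan, Ace (0.773) and Igf2 (0.768), and by deviation Bgn (0.812), Igf2 (0.761) and Tifab (0.751). In the striatum they were 5830417I10Rik (0.857), AU022252 (0.825) and Ift172 (0.796) by level, and the same 3 genes by deviation (0.841, 0.803 and 0.807). With 11 to 69 counts behind each Cyp1b1 value in the brain, counting error enters each of these correlations.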

How the data were processed

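RNA from mouse liver, prefrontal cortex and striatum was sequenced in 62 libraries, and the authors deposited a table of counts per Entrez gene for each tissue. Per the submitters' processing notes, FastQC and HISAT2 were used with build mm10, and the counting tool is not given in the sources used here. The labels' protocols name both poly(A) capture and removal of ribosomal RNA, without saying which a library had. The smallest total of a listed gene was 10 counts in each table.

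Groups came from the dose and tissue labels. Genes were kept by filterByExpr and fitted per tissue, all doses together, with the robust quasi-likelihood test of edgeR 4.0.16 in R 4.3.3, TMM scaling and Benjamini-Hochberg adjustment over 12968 (liver), 14838 (prefrontal cortex) and 15118 (striatum) genes. Log2 CPM used a prior count of 2. Members under the filter were tested by two-sided exact permutation. The fits were tested on simulated data with 200 changed genes at 6 mg/kg against vehicle. Changes of log2 1 were recovered for 47.4% of genes in liver, 81.4% in prefrontal cortex and 79% in striatum. Changes of log2 2 were recovered for 93.8%, 97% and 97%. Changes of log2 1 in the liver were thus often missed. Gene names came from a RefSeq table, which named at least 99.95% of identifiers, and lengths and GC content from the longest GENCODE transcript of a gene.

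Alternatives were DESeq2 1.42.0, its size factors, no filter, a mean of 10 counts, 2 groups alone, 1 surrogate variable (sva 3.50.0), a slope over mg/kg, a replicate block and leaving out libraries. The clock index, GC slope, library totals and vehicle animals 7 and 8 only were added after seeing the data. The GC content was known for 96.5% of tested liver genes. Members and lists were chosen with earlier results of these data known. All members are named, at most 4 passing genes per list and comparison with vehicle, those with the smallest p, or up to 2 where none passed, and the 3 genes of highest correlation. No pair of libraries agreed within sampling noise.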

Additional observations from a re-analysis of the deposited data

Results flagged for a closer look

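Of 82 sets of 4 to 6 libraries, 4 held a library far from the others, and chance gives about 4.1. Ahrr in the liver was 0.6509 CPM (6 counts) in animal 55 at 6 mg/kg and 0 in the other libraries of that dose. Cyp1b1 in the liver was 0 CPM in animal 42 at 1 mg/kg, against 0.3605 to 0.519 CPM in the others. Cyp1b1 in the striatum was 6.381 CPM (64 counts) in vehicle animal 8, against 2.58 to 2.794 CPM. Nqo1 in the striatum was 11.6 CPM (112 counts) in animal 45 at 1 mg/kg, against 3.608 to 6.173 CPM.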

How the results depend on the processing

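The count of members that passed at 6 mg/kg in the liver, 1 as reported, was 0 in 3 settings (GC slope as covariate, clock index as covariate, vehicle animals 7 and 8 only) and 0 to 1 when 1 library was left out, the loss coming without vehicle animal 4. The liver slope count, 1, was 0 with either covariate. DESeq2 called 1 member where edgeR called 0 at 1 mg/kg and from 0.1 to 6 mg/kg in the liver. The striatal contrast of 6 with 0.1 mg/kg went from 0 to 1 with 1 surrogate variable, with 2 groups and with DESeq2, and the striatal slope from 0 to 1 over mg/kg. The count between vehicle striatum and prefrontal cortex, 2, ran from 0 to 2 with 1 animal left out. Library totals turned Arnt to -0.23 and -0.16 in the liver against prefrontal cortex and striatum. The causes were not tested. Over all genes, the liver count of 363 at 6 mg/kg was 1138 with DESeq2, 0 with the clock index and 1 with the GC slope, and ran from 3 (without vehicle animal 4) to 1302 (without animal 56) with 1 library left out. Of 2146 alternative values of 115 member differences, 11 lost a call in the same direction, the 2 Arnt values lost it and turned, 6 gained one, and 174 changed sign, 172 of these among the 101 differences not called as reported.

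With the animal number as a replicate block, the counts of members under the threshold were as without it, 5, 5 and 2 for the vehicle tissue contrasts (in the first and second, Cyp1b1 is among the 5 and is no test) and 0 for all 3 interactions, while the liver against prefrontal cortex interaction over all genes went from 129 to 2. Same-numbered libraries had mean correlations of 0.0063 (liver and prefrontal cortex), 0.0052 (liver and striatum) and 0.1127 (striatum and prefrontal cortex), against -0.0016, -0.002 and -0.0233 for different numbers. A correlation over 0.1 was seen in 2 of 20, 2 of 20 and 12 of 21 same-numbered pairs, and in 15 of 92 differently numbered pairs of striatum and prefrontal cortex. The numbers were not taken as pairs, since no label says that they mark the same mouse. Same-numbered libraries of the brain regions were more alike than differently numbered ones. The reported fits between those regions therefore leave out any such pairing.

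Depth limited Ahrr, liver Cyp1a1 and Cyp1b1 and prefrontal cortex Cyp1a1, with at most 48 counts in a library.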
